A study of Homo sapiens with 2 samples.

Results

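The MTRNR2L genes are nuclear copies of MT-RNR2, the mitochondrial gene for the 16S ribosomal RNA of the large subunit of the mitochondrial ribosome. The members were the table rows whose gene symbol is MTRNR2L1 to MTRNR2L8 or MTRNR2L10, which gave 9 of 23608 gene rows. They were chosen with their levels in both libraries known, so these levels are given as a description and carry no test. The values came from SW13, an established human adrenal adenocarcinoma line, with 1 ribosome profiling library and 1 RNA sequencing library. In both, the cells overexpressed murine non-coding RNAs: the labels give 5 µg of the plasmids Add2-Mhrt779 and Add2-Hotair and collection 48 hours after transfection. The ribosome profiling library holds RNA fragments recovered with ribosomes, the RNA sequencing library holds total RNA, and there is no untransfected sample and no replicate of either assay.

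Mitochondrial DNA has been copied into the nuclear chromosomes many times during evolution, and such copies are known as nuclear mitochondrial segments. The MTRNR2L genes are copies that keep a short open reading frame matching the one inside MT-RNR2 that encodes humanin, a small peptide known for protecting cells from death and for binding the pro-apoptotic protein BAX. MT-RNR2 itself is transcribed in the mitochondrion by the mitochondrial RNA polymerase and is among the most abundant RNAs of a cell. Because copies and original are so alike, a short read of one can match another.

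To show how alike they are, the reading frames are printed here from the GENCODE 29 transcripts of the GRCh38 assembly, 5′ to 3′, against the bases 963 to 1034 of the 1559-nt MT-RNR2, with capitals marking each base that differs from MT-RNR2 or is inserted relative to it. For MTRNR2L2 the whole 87-nt transcript is shown, which GENCODE lists as a processed pseudogene with no annotated reading frame.
MT-RNR2: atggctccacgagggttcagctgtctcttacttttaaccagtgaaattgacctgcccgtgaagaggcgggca
MTRNR2L8: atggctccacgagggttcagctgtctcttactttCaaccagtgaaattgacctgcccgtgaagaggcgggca
MTRNR2L2: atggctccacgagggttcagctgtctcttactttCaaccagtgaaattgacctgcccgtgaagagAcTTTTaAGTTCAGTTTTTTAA
MTRNR2L1: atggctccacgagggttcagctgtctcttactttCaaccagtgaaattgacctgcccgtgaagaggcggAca
MTRNR2L6: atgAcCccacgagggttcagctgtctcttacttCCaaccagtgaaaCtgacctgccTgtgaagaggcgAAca
MTRNR2L10: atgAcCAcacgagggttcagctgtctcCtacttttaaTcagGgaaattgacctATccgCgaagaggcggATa
MTRNR2L3: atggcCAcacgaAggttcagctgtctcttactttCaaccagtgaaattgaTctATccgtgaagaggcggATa
MTRNR2L4: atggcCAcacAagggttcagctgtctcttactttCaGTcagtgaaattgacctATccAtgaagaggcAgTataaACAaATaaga
MTRNR2L7: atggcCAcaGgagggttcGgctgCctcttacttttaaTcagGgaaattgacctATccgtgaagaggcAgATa
MTRNR2L5: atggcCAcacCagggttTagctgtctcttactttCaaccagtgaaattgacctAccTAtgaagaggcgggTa

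The frame differed from MT-RNR2 at 1 base in MTRNR2L8 and at 2 bases in MTRNR2L1. It differed at 8 bases in MTRNR2L6, 9 each in MTRNR2L3 and MTRNR2L5, 11 in MTRNR2L10 and 12 in MTRNR2L7. In MTRNR2L4 the annotated frame is longer, at 84 nt, and 16 of its bases differed. GENCODE 29 classes 8 of the genes as protein-coding, whereas RefSeq for GRCh38.p14 lists all 9 as pseudogenes.

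Over the whole transcript the copies formed a range from close to distant. MTRNR2L8 was 93.1% identical to MT-RNR2 over 1302 nt, MTRNR2L1 88.6% over 1548 nt, MTRNR2L6 85.3% over 1399 nt and MTRNR2L10 81.2% over 1494 nt. MTRNR2L7, MTRNR2L4, MTRNR2L3 and MTRNR2L5 were between 79.8% and 78.3% identical, MTRNR2L4 over 617 nt only. For MTRNR2L2, 65 nt aligned, with 1 mismatch. In all of the 8 longer transcripts the bases of the humanin frame were more alike to MT-RNR2 than the rest of the aligned sequence. The values were 98.6% against 92.8% in MTRNR2L8 and, a small difference over 72 nt, 83.3% against 81.4% in MTRNR2L7. This comparison leaves out bases inserted in the copies, so its values are not on the scale of the whole-transcript identities. Between pairs of these 8 genes the identity ran from 78.2% to 88.0%, with a median of 83.0% over 28 pairs, so that MTRNR2L8 and MTRNR2L1 were closer to MT-RNR2 than to any other member.

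**Figure D1:**
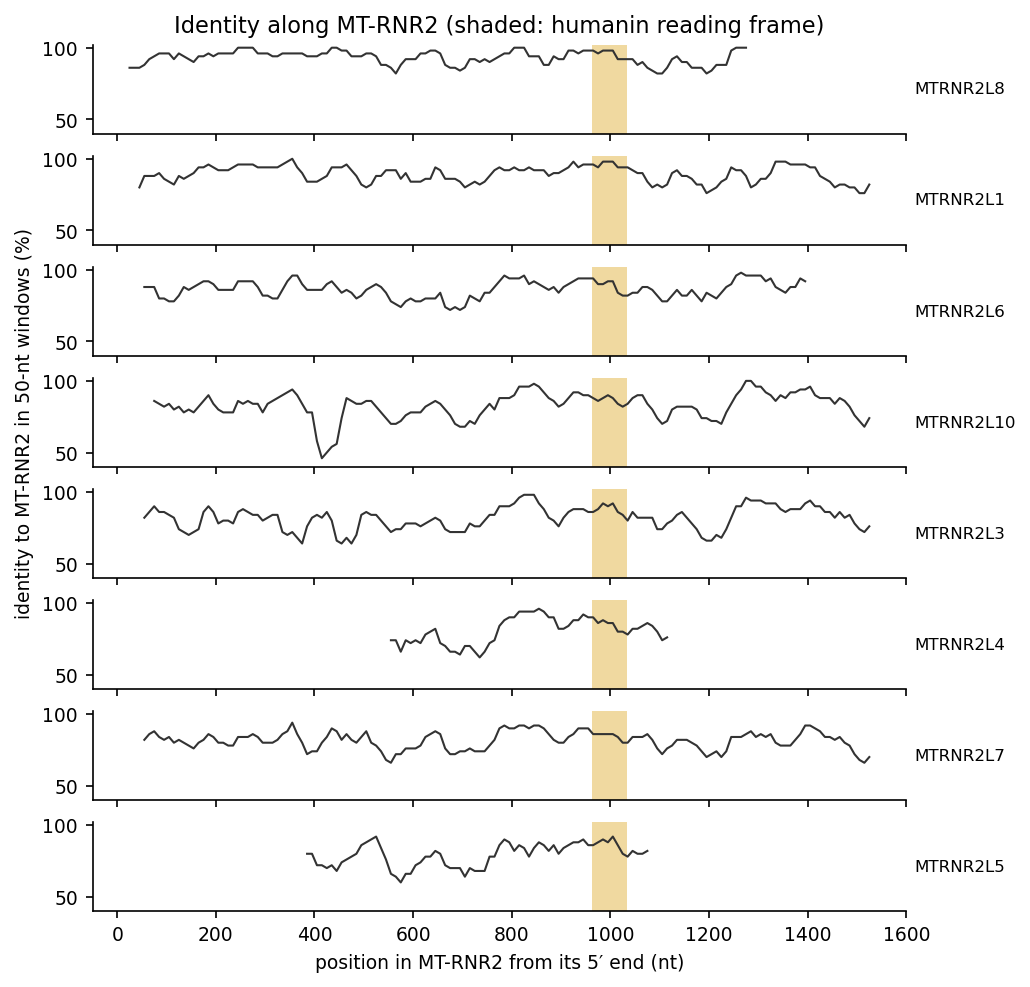
Identity to MT-RNR2 in 50-nt windows, in percent, against the position in MT-RNR2 in nt from its 5′ end, with 1 panel for each of the 8 members with a transcript over 200 nt and the humanin frame shaded. The lowest window is at 82% in MTRNR2L8, 76% in MTRNR2L1 and 72% in MTRNR2L6, and between 46% and 66% in the other 5.

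The size of the shared stretches matters for short reads, so the longest run of MTRNR2L8 that equals MT-RNR2 is shown, bases 219 to 306 of MT-RNR2, above the stretch of MTRNR2L7 aligned with it, where capitals mark the 14 of 88 bases that differ.
MTRNR2L8 run: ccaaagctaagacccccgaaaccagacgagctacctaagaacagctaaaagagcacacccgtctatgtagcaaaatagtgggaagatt
MTRNR2L7 stretch: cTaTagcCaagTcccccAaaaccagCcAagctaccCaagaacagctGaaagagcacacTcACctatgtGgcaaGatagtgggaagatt

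The run of 88 nt exceeds the read length of 50 nt given in the labels, and in MTRNR2L7 the longest identical run was 32 nt. Of all 50-nt windows of MTRNR2L8, 39.4% lay within 2 mismatches of some window of MT-RNR2. This share was 16.8% in MTRNR2L1, 7.08% in MTRNR2L6, 7.02% in MTRNR2L10, 3.15% in MTRNR2L3, 0.934% in MTRNR2L4, 0.0673% in MTRNR2L7 and 0 in MTRNR2L5. With 28-nt windows, a length close to that of a ribosome footprint, the share was 67.3% in MTRNR2L8, 45.5% in MTRNR2L1 and 8.53% in MTRNR2L4, the lowest.

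The rows lie on 8 chromosomes in the table, whose contig names are those of hg19. MTRNR2L8 is on chromosome 11 from 10529434 to 10530723, MTRNR2L1 on chromosome 17 from 22022437 to 22023991 and MTRNR2L6 on chromosome 7 from 142374131 to 142375525. MTRNR2L10 is on chromosome X from 55207824 to 55208944, MTRNR2L4 on chromosome 16 from 3421053 to 3422283, MTRNR2L7 on chromosome 10 from 37890366 to 37891859 and MTRNR2L5 on chromosome 10 from 57358750 to 57360487. The row of MTRNR2L2 carries a merged locus with other genes on chromosome 5, and that of MTRNR2L3 one with RAE1, RBM38, SPO11 and MIR5095 on chromosome 20 from 55904831 to 55998278.

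All 9 rows were far lower in ribosome profiling than in RNA sequencing. Levels are read as FPKM, fragment counts scaled by transcript length and library size, from the layout of the authors' table, whose header does not name the unit. For MTRNR2L2 and MTRNR2L3, with their merged loci, the length used is not known, which bears on their levels, ranks and shares. MTRNR2L8 had 132 FPKM in ribosome profiling and 13534 FPKM in RNA sequencing. MTRNR2L2 had 150.3 FPKM in ribosome profiling and 12387 FPKM in RNA sequencing, and MTRNR2L1 had 130.4 FPKM in ribosome profiling and 5551 FPKM in RNA sequencing. These 3 rows stood close together in ribosome profiling and held the highest values of the family in both libraries.

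The next rows kept much of their level in RNA sequencing but little in ribosome profiling. MTRNR2L6 had 9.42 FPKM in ribosome profiling and 3402 FPKM in RNA sequencing. MTRNR2L10 had 3.76 FPKM in ribosome profiling and 2888 FPKM in RNA sequencing. MTRNR2L3 had 5.13 FPKM in ribosome profiling and 1246 FPKM in RNA sequencing. Between MTRNR2L1 and MTRNR2L6 the levels thus differ far more in ribosome profiling than in RNA sequencing.

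The lowest rows in RNA sequencing were MTRNR2L4, MTRNR2L7 and MTRNR2L5. MTRNR2L4 had 2.52 FPKM in ribosome profiling and 359 FPKM in RNA sequencing. MTRNR2L7 had 7.36 FPKM in ribosome profiling and 253 FPKM in RNA sequencing, and MTRNR2L5 had 2.82 FPKM in ribosome profiling and 149 FPKM in RNA sequencing. The ranges of the assays hardly met: the highest ribosome profiling value of the family, 150.3 FPKM, was about the level of its lowest RNA sequencing value.

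**Figure D2:**
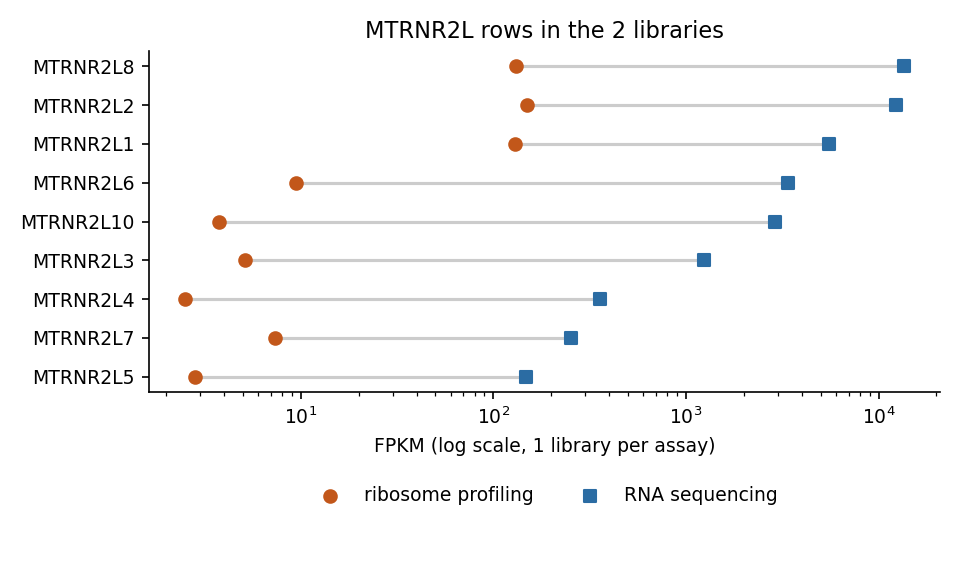
FPKM of each MTRNR2L row on a log axis, in ribosome profiling (circles) and RNA sequencing (squares), 1 library per assay, ordered by RNA sequencing. The ribosome profiling points run from 2.52 to 150.3 and the RNA sequencing points from 149 to 13534, and in every row the circle lies left of the square.

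Summed over the family, the signal was 444 FPKM in ribosome profiling and 39768 FPKM in RNA sequencing, 89.6-fold lower as deposited. Relative to the median tested gene, which was 1.31-fold higher in ribosome profiling on the log2(FPKM + 1) scale, the sum lay 117-fold lower. Tested genes are the 2734 rows whose FPKM averaged at least 10 and whose test the table did not mark FAIL or HIDATA, and all 9 members are among them, 6 of them only through their RNA sequencing level. The family held 0.00687% of the FPKM of all rows in ribosome profiling and 2.15% in RNA sequencing. Small RNA genes took 96.8% of the FPKM of all rows in ribosome profiling and 88.7% in RNA sequencing. Among them the ribosomal RNA row RNA5-8S5 had 4180970 of 6457390 FPKM in ribosome profiling. In RNA sequencing it had 157223 of 1846990 FPKM. The share of the family over all rows was thus lowered far more by RNA5-8S5 in ribosome profiling than in RNA sequencing. Without the 1735 small RNA rows the family held 0.215% of the FPKM in ribosome profiling and 19.0% in RNA sequencing.

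Among the 21873 rows that are not small RNA genes, MTRNR2L8, MTRNR2L2 and MTRNR2L1 held ranks 268, 230 and 272 in ribosome profiling, MTRNR2L6 rank 2559 and MTRNR2L10 rank 4976. In RNA sequencing these 5 rows held ranks 1 to 5, ahead of the GAGE2D,GAGE8 row with 2805 FPKM. MTRNR2L5 held rank 5925 in ribosome profiling and rank 174 in RNA sequencing, where it was the lowest member.

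Per row, relative to the median tested gene, MTRNR2L10 lay 794-fold lower in ribosome profiling, MTRNR2L6 427-fold and MTRNR2L3 267-fold. MTRNR2L4 lay 134-fold lower, MTRNR2L8 133-fold and MTRNR2L2 107-fold. MTRNR2L1, MTRNR2L5 and MTRNR2L7 were the least reduced, at 55.3-fold, 51.4-fold and 39.8-fold. The median log2 ratio of the 9 rows was -7.06, against 0 for all tested genes by construction.

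All 9 members were at least 2-fold below the median tested gene, as were 19.7% of all tested genes, and none was at least 2-fold above it, as 13.1% were. All 9 were also at least 32-fold below it. Of all tested genes 4.83% were that low, most of them listed at 0 in ribosome profiling. Of the 2550 tested rows above 0 in both libraries 0.667% were that low, which is 17 rows, and 9 of the 17 are the MTRNR2L rows. Since the members were chosen on these values, these shares describe the table and test nothing.

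**Figure D3:**
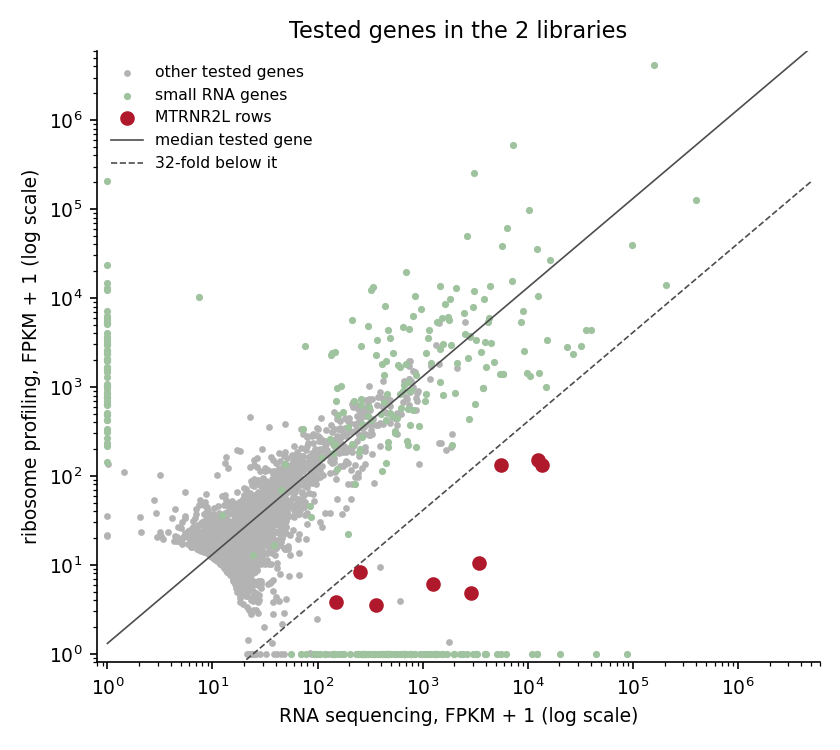
Ribosome profiling against RNA sequencing for the 2734 tested genes, both as FPKM + 1 on log axes, with small RNA genes in green, MTRNR2L rows in red, a solid line at the ratio of the median tested gene and a dashed line 32-fold below it. All 9 red points lie under the dashed line, and 3 of them sit near 130.4 to 150.3 FPKM in ribosome profiling.

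The 8 other rows this low include the nuclear long non-coding RNAs HOTAIR, MALAT1 and NEAT1, named after their values were seen. HOTAIR, a binder of Polycomb proteins, had 2.92 FPKM in ribosome profiling and 612 FPKM in RNA sequencing. The cells also received the Add2-Hotair plasmid, and its part in the HOTAIR row was not tested. MALAT1, a nuclear speckle RNA, had 8.54 FPKM in ribosome profiling and 390.3 FPKM in RNA sequencing. The remaining 5 are LINC00657 and the rows of GAGE12D, RPL21, H3F3A and C20orf24. Outside the family, the row nearest to MTRNR2L8 by distance over the log2(FPKM + 1) values of the 2 libraries was that of the small nuclear RNA RNU6-28, at a distance of 2.85. The next were SNORD68, SNORA63, Mhrt779 and Mhrt709, the last at 3.05, and Mhrt779 is the name of a transfected RNA. Nearest to the summed family were SNORD68, SNAR-A6, VTRNA1-1, RPPH1 and SNAR-A7, at distances from 1.81 to 2.63.

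The authors' deposited table called all 9 rows significant and lower in ribosome profiling. Of its 4849 rows with the status OK, 0.887% were called lower and 0.412% higher. The log2 ratio of MTRNR2L10 was -9.58 with a standard error of 1.45 in the authors' deposited table, and that of MTRNR2L7 was -5.10 with a standard error of 1.13. The q-values of the 9 rows in the authors' deposited table ran from 3.4e-08 for MTRNR2L6 to 0.0020 for MTRNR2L1. These errors come from the model behind the authors' deposited table, hold no spread between cultures, and ran from 1.13 to 1.45 for the members against a median of 0.913 over rows with the status OK. The 95% intervals of MTRNR2L10, from -12.4 to -6.73, and of MTRNR2L7, from -7.31 to -2.90, overlapped in the authors' deposited table, and every member's interval overlapped that of MTRNR2L8.

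The members divided the signal differently in the 2 libraries. MTRNR2L8 held 29.7% of the summed family FPKM in ribosome profiling and 34.0% in RNA sequencing, and MTRNR2L2 held 33.9% in ribosome profiling and 31.1% in RNA sequencing. MTRNR2L1 held 29.4% in ribosome profiling and 14.0% in RNA sequencing. Together these 3 rows made up 93.0% of the family in ribosome profiling and 79.1% in RNA sequencing. MTRNR2L6 and MTRNR2L10 showed the reverse, with 2.12% and 0.848% in ribosome profiling and 8.56% and 7.26% in RNA sequencing. The other 6 rows summed to 31.0 FPKM in ribosome profiling and 8297 FPKM in RNA sequencing, 268-fold lower as deposited, and the first 3 to 413 FPKM in ribosome profiling and 31471 FPKM in RNA sequencing, 76.3-fold lower.

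**Figure D4:**
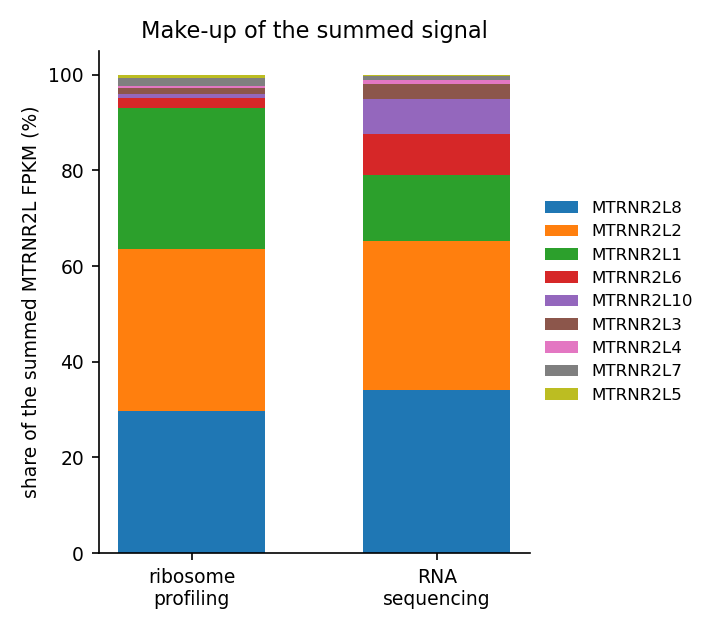
Share of each MTRNR2L row in the summed family FPKM, in percent, in ribosome profiling (left bar) and RNA sequencing (right bar). MTRNR2L8, MTRNR2L2 and MTRNR2L1 fill 93.0% of the left bar and 79.1% of the right bar.

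The levels followed the likeness to MT-RNR2. Across the 8 members with a transcript over 200 nt, the share of 50-nt windows within 2 mismatches of MT-RNR2 had a Spearman's rho of 0.79 with ribosome profiling FPKM and of 1 with RNA sequencing FPKM, where both orders were the same. With the log2 ratio between the assays rho was -0.38. For the share of 28-nt windows the values were 0.83 with ribosome profiling, 0.90 with RNA sequencing and -0.24 with the log2 ratio. These are descriptions over 8 genes that share 2 libraries and much of their sequence, and the transcripts are those of GENCODE 29, whose ends differ from the loci in the table. MTRNR2L2, left out for its 87-nt transcript, had the highest shares of the family, 47.4% of 50-nt and 68.3% of 28-nt windows. It was highest in ribosome profiling but below MTRNR2L8 in RNA sequencing. With it included, the orders in RNA sequencing would thus no longer be the same. Whether the reads came from the nuclear copies or from MT-RNR2 cannot be told apart with gene totals, and rows of the mitochondrial genome were not analysed here.

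**Figure D5:**
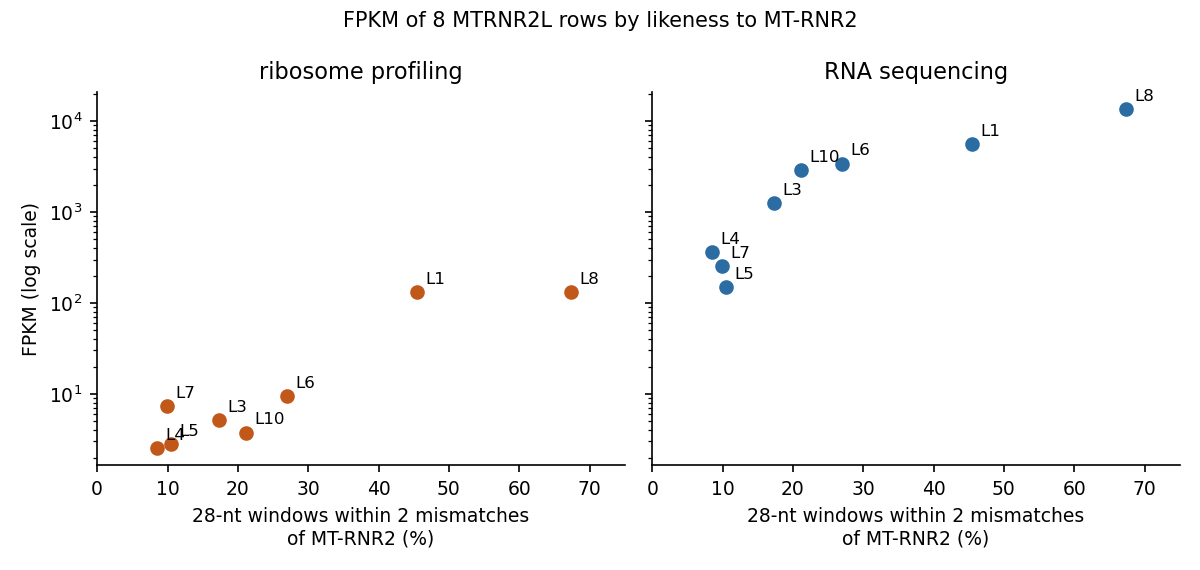
FPKM on a log axis in ribosome profiling (left) and RNA sequencing (right) against the share of 28-nt windows of the transcript that lie within 2 mismatches of MT-RNR2, in percent, for 8 members labelled by the end of their symbol. MTRNR2L8 and MTRNR2L1, at 67.3% and 45.5%, stand at the top of both panels, and in ribosome profiling the other 6 lie between 2.52 and 9.42 FPKM.

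The genes around the copies were far below the members in RNA sequencing, while some stood above the less abundant members in ribosome profiling. Of 25 rows that share a member's locus or are the nearest listed on either side of it, 14 were listed at 0 in both assays, as were 38.5% of all rows. The nearest rows were not always close: the gaps ran from 307 bp, between AMPD3 and MTRNR2L8, to 3596944 bp, between MIR4522 and MTRNR2L1. The mismatch repair gene MSH3, in the merged locus of MTRNR2L2, had 2.04 FPKM in ribosome profiling and 0.943 FPKM in RNA sequencing. RAE1, an mRNA export factor in the locus of MTRNR2L3, had 17.7 FPKM in ribosome profiling and 8.26 FPKM in RNA sequencing, so that in ribosome profiling it stood above MTRNR2L3 itself. No neighbour exceeded 17.7 FPKM in ribosome profiling or 9.13 FPKM in RNA sequencing, the level of ZWINT, which lies 756711 bp from MTRNR2L5.

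The locus of MTRNR2L8 also holds MIR4485, a microRNA row listed at 0 in both libraries with the status LOWDATA. Its mature sequence is shown because it equals part of both RNAs, with the seed, bases 2 to 8, in capitals.
hsa-miR-4485-3p: uAACGGCCgcgguacccuaa
These 20 nt, from RefSeq for GRCh38.p14, occur at base 893 of MT-RNR2 and at base 894 of the MTRNR2L8 transcript, and in none of the other 8 member transcripts.

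Genes that act with mitochondrial ribosomal RNA had median ratios near that of all tested genes. Of 50 tested mitochondrial ribosomal proteins, the partners of the 16S RNA in the mitochondrial ribosome, 12 were at least 2-fold above the median tested gene and 4 at least 2-fold below, with a median log2 ratio of 0.25. Of all tested genes 13.1% were that high and 19.7% that low. The most abundant, MRPL51, had 69.1 FPKM in ribosome profiling and 50.1 FPKM in RNA sequencing. Of 42 genes for transcription, processing and translation of mitochondrial RNA, 6 were tested, with a median log2 ratio of -0.13. Among them SLIRP, a stabiliser of mitochondrial mRNAs, had 522 FPKM in ribosome profiling and 141 FPKM in RNA sequencing, and was 2.81-fold above the median tested gene. TUFM, the mitochondrial elongation factor, had 31.0 FPKM in ribosome profiling and 37.4 FPKM in RNA sequencing, and none of the 6 was at least 2-fold below.

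Of 15 genes linked with humanin, among them receptors and binding partners, 11 were above 0 in each library and 1 passed the filter. It was APP, the amyloid precursor protein, with 146 FPKM in ribosome profiling and 42.9 FPKM in RNA sequencing. BCL2L11, a pro-apoptotic member of the BCL2 family and below the filter, had 11.6 FPKM in ribosome profiling and 4.62 FPKM in RNA sequencing. Of the cytosolic ribosomal RNAs, the precursor row RNA45S5, which holds the large-subunit RNA that corresponds to 16S, was listed at 0 in both libraries with the status HIDATA, so its direction was not measured. RNA5-8S5, a short ribosomal RNA of the same subunit and a small RNA row, had 4180970 FPKM in ribosome profiling and 157223 FPKM in RNA sequencing, 20.3-fold above the median tested gene.

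The low FPKM values gave the relative depth of the libraries. Of 334 rows above 0 but under 0.9 FPKM in ribosome profiling and under 0.6 FPKM in RNA sequencing, 104 had the same ratio within 0.02 on the log2 scale, and 34 and 37 more lay 1 log2 unit above and below it. This ratio was 1.56, so that, if the smallest step is the same unit in both assays, an equal number of steps gave 1.56-fold more FPKM in ribosome profiling. The smallest step in RNA sequencing was taken as about 0.627 FPKM for 1 kb of sequence. It is the median of 30 rows inside a band set from 0.5 to 0.8. The step in ribosome profiling, about 0.978 FPKM for 1 kb, was not measured but derived from it with the ratio of 1.56. With the locus length taken as the transcript length, the ribosome profiling values stood for about 174 such steps in MTRNR2L8 and 207 in MTRNR2L1. They stood for about 13.4 in MTRNR2L6, 11.2 in MTRNR2L7, 5.00 in MTRNR2L5, 4.31 in MTRNR2L10 and 3.17 in MTRNR2L4. In RNA sequencing the same 7 rows ran from 412 steps in MTRNR2L5 to 27845 in MTRNR2L8. Whether a step is a read or a fragment is not known, and reads that match several copies may have been divided between rows. The order of the less abundant members by ratio thus rests on few steps.

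Of 9 genes that mark steroid-producing adrenal cortex, all were listed at 0 in both libraries, including NR5A1 and STAR. SMARCA4, a remodeller known to be lost in SW13, had 0.677 FPKM in ribosome profiling and 3.99 FPKM in RNA sequencing. SMARCA2, known as low or absent in SW13, had 1.75 FPKM in ribosome profiling and 1.72 FPKM in RNA sequencing. Both rows had the status NOTEST. The intermediate filament VIM, which sublines of SW13 express to different extents, had 707 FPKM in ribosome profiling and 490.2 FPKM in RNA sequencing.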

How the data were processed

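Per the labels' protocols, SW13 cells were grown with 10% serum, total RNA was isolated by direct lysis, ribosome-associated fragments came from a ribosome profiling kit, and both were read from both ends at 50 nt. The deposited table gives 1 value per gene and library, computed by the authors and read as FPKM from the table's layout, with their log2 ratio between the assays (ribosome profiling on top), statistic, p-value, q-value and call. Per the submitters' processing notes, the tools included bedtools 2.16.1, SAMtools 0.1.18, Bowtie2 2.0.0.6 and TopHat2 2.0.8b, with the builds hg19 and mm10. The treatment of reads that match several places, which bears on every member, is not given in the sources used here. Start coordinates were raised by 1 base to count from 1.

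Ratios are log2((FPKM + 1)/(FPKM + 1)) of ribosome profiling over RNA sequencing, minus the median over tested genes. The pseudocount of 1 understates the change of low values. With 1 library per assay no p-value was computed. Errors of the deposited log2 ratios were taken as the ratio's size over that of the statistic. A normal distribution of the statistic gave the deposited p-value within 0.001 in 100% of rows with the status OK, and intervals are 1.96 such errors to each side. Small RNA genes were taken by symbol. GENCODE 29 transcripts were aligned to MT-RNR2 with Biopython 1.88 (local alignment, match 2, mismatch -3, gap opening -5, extension -2), and identity counts gap bases. The members, gene lists and naming rules were chosen with earlier results of these data known. The text names all members, the leading and extreme genes of each list, the 5 nearest rows and neighbouring rows. Alternatives covered the pseudocount, the filter, the status, centring, library scaling and the sum.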

Additional observations from a re-analysis of the deposited data

How the results depend on the processing

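Every one of the 124 values recomputed under 14 alternative settings kept its direction and its side of the 2-fold limit. The 9 members lay 39.8-fold to 794-fold below the median tested gene, so these settings could hardly have moved them across that limit. The ranges below show how far the values moved. The log2 ratio of the summed family was -6.87 and ranged from -8.41, without the 3 members highest in RNA sequencing, to -6.20, with no filter on mean FPKM. The median log2 ratio of the members, -7.06, ranged from -7.23 to -6.39 over 10 settings, and all 9 members stayed at least 2-fold below the median tested gene in each. MTRNR2L4 moved most among single members, between -7.51 with a pseudocount of 0.1 and -5.93 with one of 5, since its ribosome profiling value is only 2.52 FPKM. Centring on genes above 0 in both libraries, the sum without the 3 highest members and the length-weighted mean over loci under 2.5 kb were chosen after seeing the data. No paired analysis was possible because each assay has 1 library. The depth of the ribosome profiling library limits any order among MTRNR2L4, MTRNR2L5 and MTRNR2L10. The division of reads among copies was not tested.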
